A study of Mus musculus with 10 samples.

Results

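Flrt1, Cntnap2, Ctxn3 and Tspan8 encode proteins of the cell surface, and all 4 stood far lower in the tibialis anterior of FoxP1iSkmTg mice than of Control mice. They were chosen by name from the 3480 genes in the deposited table, with their large differences between these groups already known, so the differences are described here and not tested. The tibialis anterior, which lifts the foot and in mice is made mostly of fast fibres, was taken from 5 FoxP1iSkmTg and 5 Control mice. FoxP1iSkmTg mice carry FoxP1flSTOP, a Foxp1 transgene held silent by a floxed stop cassette, together with HSA-MerCreMer, a tamoxifen-activated Cre recombinase driven by the human skeletal actin promoter in muscle fibres. Control mice carry FoxP1flSTOP without the recombinase. Mice of either genotype were injected with tamoxifen, 80 mg/kg on each of 4 days, and per the study's methods the mice were females aged 13 to 18 weeks. No group carries MerCreMer alone, so an effect of Foxp1 and one of activated Cre cannot be told apart.

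Proteins of the muscle cell surface join the fibre to its matrix, its nerve and its neighbours. FLRT1 is a single-pass protein with leucine-rich repeats outside the cell, one of a small family that binds latrophilin and UNC5 receptors and acts on fibroblast growth factor receptor signalling. Cntnap2 encodes CASPR2, a neurexin-like protein best known from myelinated axons, where it helps to cluster voltage-gated potassium channels beside the nodes. Ctxn3 encodes a cortexin, a small single-pass membrane protein of a family first described in brain cortex, and Tspan8 encodes a tetraspanin, one of a large family of proteins that cross the membrane repeatedly and organise integrins and other partners into membrane domains. FOXP1 is a forkhead transcription factor that can repress its target genes.

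Because the groups differ in a forkhead factor, the available promoter sequences of the members were searched for forkhead letters. The RefSeq promoter table (GRCm38.p6, the build that is also called mm10) held 3 windows, 2 for Cntnap2 and 1 for Tspan8. It held none for Flrt1 or Ctxn3, which were therefore not searched. The 250 bases before each transcript start are shown in lower case, with forkhead matches in capitals. The Tspan8 window covers chr10:115817034-115817283 (plus strand), and those of Cntnap2 cover chr6:45059811-45060060 and chr6:47244146-47244395 (plus strand), before the start of the long and of a short transcript. All 3 windows lie inside the annotated gene spans, which begin at 115816832 for Tspan8 and 45059357 for Cntnap2. The bases before those span starts were not searched.
Tspan8: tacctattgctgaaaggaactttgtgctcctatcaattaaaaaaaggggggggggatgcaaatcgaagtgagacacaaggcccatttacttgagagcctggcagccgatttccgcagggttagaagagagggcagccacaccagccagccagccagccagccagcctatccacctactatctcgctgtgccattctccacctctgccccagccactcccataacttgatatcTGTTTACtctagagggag
Cntnap2 long transcript: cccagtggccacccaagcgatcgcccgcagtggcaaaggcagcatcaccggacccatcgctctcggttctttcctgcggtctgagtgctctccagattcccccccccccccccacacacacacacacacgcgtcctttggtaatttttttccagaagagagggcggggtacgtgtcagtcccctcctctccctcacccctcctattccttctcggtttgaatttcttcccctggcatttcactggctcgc
Cntnap2 short transcript: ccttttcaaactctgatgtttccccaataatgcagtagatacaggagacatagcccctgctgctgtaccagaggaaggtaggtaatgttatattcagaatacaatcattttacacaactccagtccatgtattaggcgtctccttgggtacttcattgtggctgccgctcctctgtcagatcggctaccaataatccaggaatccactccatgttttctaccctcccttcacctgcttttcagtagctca

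For forkhead factors the letters TGTTTAC were searched, as were the variants with the letters TGTTTAT or with the letters TATTTAT, and for E-box factors the letters CACGTG, on both strands of the 300 bases from 250 before to 50 after the start. The Tspan8 window held TGTTTAC once, beginning 18 bases before the start, and TATTTAT once on the opposite strand, beginning 20 bases after it, where the sequence is not shown. Neither Cntnap2 window held any of the searched letters, and no CACGTG was in the Tspan8 window. Over all 32851 promoters in the table, 3.65% held TGTTTAC, 5.60% held TATTTAT, 12.8% held at least 1 of the 3 forkhead motifs and 7.15% held CACGTG. No matches overlapped in these windows. A match describes the letters and is not a binding site.

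Foxp1 itself was higher in every FoxP1iSkmTg mouse, at a fitted log2 fold change of 3.42 ± 0.44 (SE, adjusted p = 0.000613 by edgeR). Foxp1 stood at 5352, 2163, 5813, 1423 and 1289 normalized counts in FoxP1iSkmTg replicates 1 to 5, against 371, 232, 390, 270 and 260 in Control replicates 1 to 5, where a normalized count is a read count divided by the library's DESeq2 size factor. FoxP1iSkmTg replicates 1 and 3 thus held far more Foxp1 RNA than the other FoxP1iSkmTg mice, and no FoxP1iSkmTg mouse overlapped the Control range. Reads of the transgene and of the endogenous gene are counted together. Read counts over the listed genes summed to 6620970 to 8737660 per mouse. Of the markers of the labelled tissue, Acta1, the skeletal alpha-actin gene, stood at 249099 to 337032 normalized counts in FoxP1iSkmTg and 439254 to 491280 in Control mice. The 8 listed muscle fibre markers of 15 summed to 1201230 to 1400230 in FoxP1iSkmTg mice and 1621600 to 1910090 in Control mice. Genes were listed only at an unadjusted p under 0.05, so the sums cover only markers selected on this same contrast. Of the 8, 5 passed the test as lower, beside 18.2% lower over all tested genes. Without FoxP1iSkmTg replicate 1, or without Control replicate 1, 2 or 4, 3 did so. Any part of these lower fibre markers in the levels of the members was not tested.

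Flrt1 (ENSMUSG00000047787) showed the largest difference of the 4, although without FoxP1iSkmTg replicate 5 that of Cntnap2 was larger (log2 fold change -2.91, against -2.74 for Flrt1). It lies on the minus strand of chromosome 19, from 7092014 to 7105729 (mm10). Flrt1 stood at 688, 160, 430, 168 and 258 normalized counts in FoxP1iSkmTg replicates 1 to 5, against 2335, 2607, 2370, 2986 and 2087 in Control replicates 1 to 5. The groups did not overlap, and the lowest Control mouse held 3.03 times as much as the highest FoxP1iSkmTg mouse. The means were 341 ± 222 in FoxP1iSkmTg and 2477 ± 339 in Control mice (SD, n = 5 each), so FoxP1iSkmTg muscle held 13.8% of the Control level. The fitted log2 fold change from edgeR was -2.83 ± 0.35 (SE), or 7.09-fold lower. Within the FoxP1iSkmTg group the level spanned 4.29-fold, with replicates 1 and 3 highest and replicates 2 and 4 lowest, whereas the Control mice spanned 1.43-fold.

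Cntnap2 (ENSMUSG00000039419) was the least abundant member and the one with the widest spread among FoxP1iSkmTg mice. It spans 2245 kb of the plus strand of chromosome 6, from 45059357 to 47304213. Cntnap2 stood at 9.26, 32.1, 12.4, 37.1 and 66.5 normalized counts in FoxP1iSkmTg replicates 1 to 5, against 185, 189, 143, 195 and 162 in Control replicates 1 to 5. Replicates 1 and 3 of FoxP1iSkmTg were the lowest and replicate 5 the highest of that group, and every one was below the lowest Control mouse. The means were 31.5 ± 23.0 in FoxP1iSkmTg and 175 ± 21.7 in Control mice (SD, n = 5 each), or 18.0% of the Control level, and the fitted log2 fold change was -2.45 ± 0.38 (SE). The 7.18-fold range among FoxP1iSkmTg mice rested on 11 reads in replicate 1 and 66 in replicate 5. Their exact 95% Poisson intervals, 5.49 to 19.7 reads and 51.0 to 84.0 reads, did not overlap, and these intervals cover counting error only.

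Tspan8 (ENSMUSG00000034127) varied least among FoxP1iSkmTg mice. It lies on the plus strand of chromosome 10, from 115816832 to 115849893. Tspan8 stood at 120, 199, 134, 213 and 199.5 normalized counts in FoxP1iSkmTg replicates 1 to 5, against 679, 694, 554, 817 and 703 in Control replicates 1 to 5. All FoxP1iSkmTg mice were lower than every Control mouse, with a gap of 2.60-fold between the nearest mice. The means were 173 ± 42.8 in FoxP1iSkmTg and 689 ± 93.4 in Control mice (SD, n = 5 each), or 25.1% of the Control level, and the fitted log2 fold change was -1.97 ± 0.16 (SE). The range was 1.77-fold in FoxP1iSkmTg and 1.47-fold in Control mice.

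Ctxn3 (ENSMUSG00000069372) lies on the plus strand of chromosome 18, from 57468516 to 57478133. Ctxn3 stood at 42.1, 107, 48.4, 179 and 126 normalized counts in FoxP1iSkmTg replicates 1 to 5, against 457, 521, 422, 460 and 400.4 in Control replicates 1 to 5. The FoxP1iSkmTg mice again lay wholly below the Control mice, by 2.24-fold between the nearest mice, with replicates 1 and 3 the lowest. The means were 100.5 ± 56.9 in FoxP1iSkmTg and 452 ± 45.7 in Control mice (SD, n = 5 each), or 22.2% of the Control level, and the fitted log2 fold change was -2.13 ± 0.31 (SE). The range was 4.25-fold among FoxP1iSkmTg and 1.30-fold among Control mice.

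**Figure D1:**
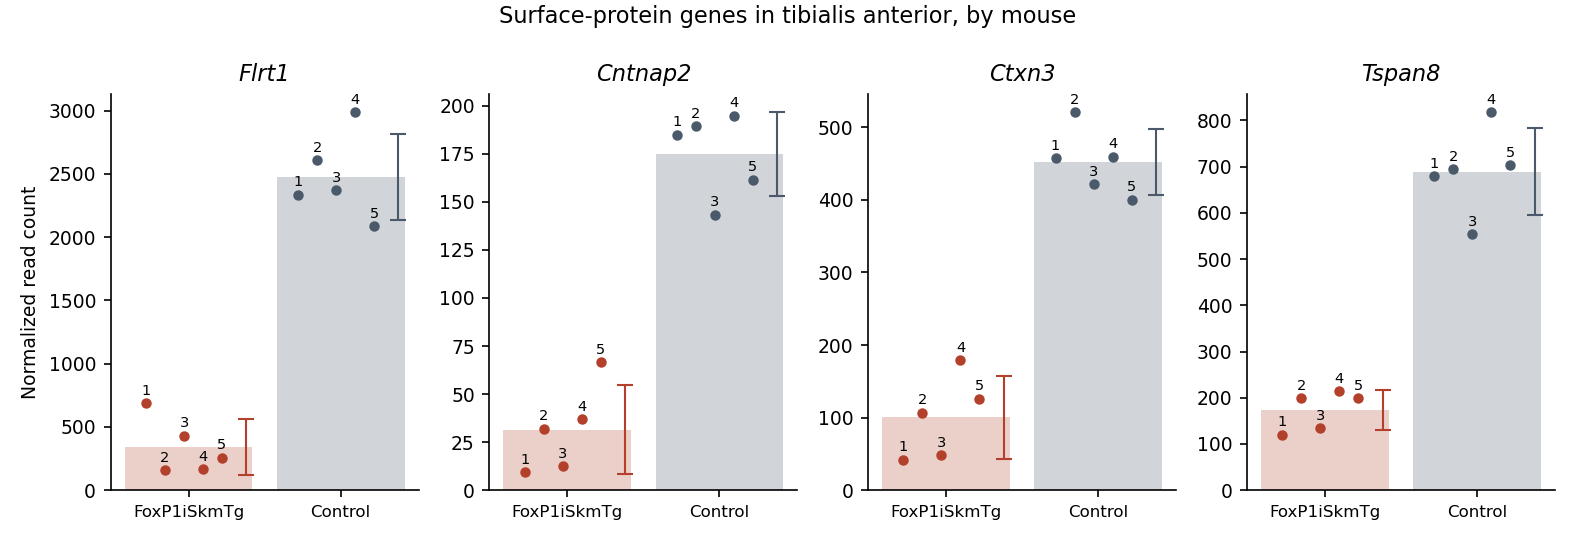
Normalized read counts of Flrt1, Cntnap2, Ctxn3 and Tspan8 in 5 FoxP1iSkmTg (left, red) and 5 Control mice (right, grey), each panel on its own linear axis from 0. Points are mice, labelled by replicate number, bars are means and error bars are SD; in every panel all FoxP1iSkmTg mice lie below all Control mice.

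All 4 members passed the filter on low counts, which kept 3115 of the listed genes. Separation of the groups in this direction was frequent in the table, since 22.4% of the tested genes had every FoxP1iSkmTg mouse below every Control mouse. At an adjusted p under 0.05 by the edgeR quasi-likelihood test, 18.2% of tested genes were lower and 22.2% were higher in FoxP1iSkmTg muscle, or 567 and 692 genes. The balance turned with the scaling, at 617 lower and 544 higher genes with the authors' size factors and 621 lower and 541 higher with totals without TMM. These shares are of a table restricted by the authors to genes whose unadjusted p was under 0.05. Nothing is read from them about the members, which were selected on this same contrast. In whole muscle, fewer cells of a type and less RNA per cell cannot be told apart.

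Ordered by size of fall among the 2433 tested protein-coding genes with at least 100 normalized counts on average, Flrt1 ranked 3, Cntnap2 5, Ctxn3 7 and Tspan8 9. Next above Flrt1 was Mettl21c, a lysine methyltransferase gene, at a log2 fold change of -3.59 ± 0.29 (SE). Asb15 stood between Flrt1 and Cntnap2 at -2.45 ± 0.20, and Asb5 between Cntnap2 and Ctxn3 at -2.37 ± 0.13; both encode ankyrin-repeat proteins with a SOCS box. Klhl31, a kelch-repeat gene of muscle, stood between Ctxn3 and Tspan8 at -2.01 ± 0.15, and Lrp2bp followed Tspan8 at -1.96 ± 0.44. From Asb15 to Lrp2bp, each gene and the next in the order differed by less than the SE of the wider of the pair. Over all 3115 tested genes, without the limits on gene type and level, Flrt1 ranked 11, Cntnap2 22, Ctxn3 33 and Tspan8 40. Cntnap2 averaged 103 normalized counts over the 10 mice, close to the limit of 100.

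**Figure D2:**
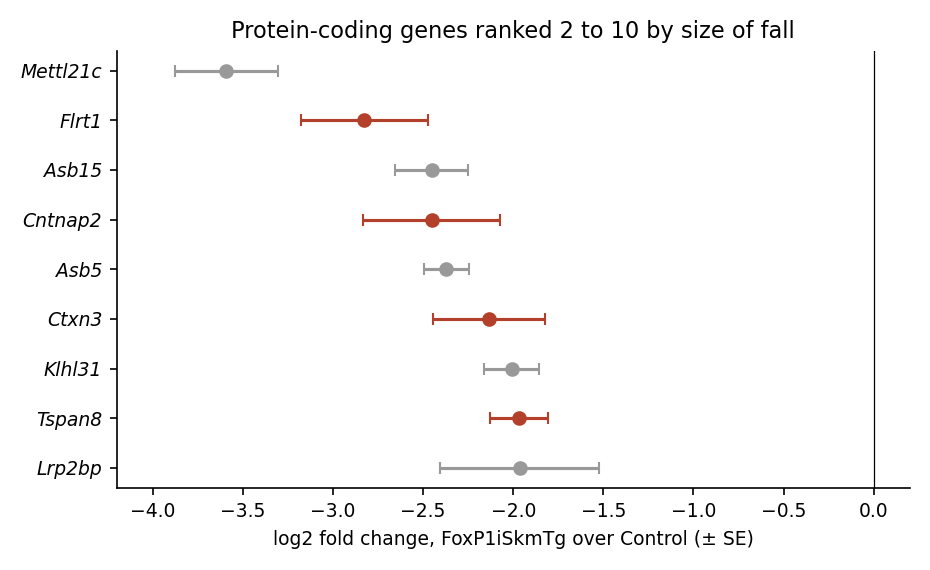
Fitted log2 fold change, FoxP1iSkmTg over Control, for the protein-coding genes ranked 2 to 10 by size of fall. The ranks are among the 2433 tested protein-coding genes with at least 100 normalized counts on average. Points are edgeR estimates, bars are SE, and the 4 surface-protein genes are in red; Flrt1 is at -2.83 and Tspan8 at -1.97, and the intervals of most neighbours overlap.

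Compared per length, the members changed places between the groups. In FPKM, fragments scaled to gene length and library total, Tspan8 averaged 5.75 ± 1.42, Ctxn3 3.54 ± 2.002, Flrt1 3.29 ± 2.15 and Cntnap2 0.173 ± 0.127 in FoxP1iSkmTg mice (SD, n = 5). In Control mice the level was 23.9 ± 3.29 FPKM for Flrt1, 22.9 ± 3.12 for Tspan8, 15.9 ± 1.60 for Ctxn3 and 0.965 ± 0.120 for Cntnap2 (SD, n = 5). Flrt1 was thus below Tspan8 and Ctxn3 in mean level in FoxP1iSkmTg muscle and above them in Control muscle. Ctxn3 and Flrt1 overlapped in FoxP1iSkmTg mice, where Ctxn3 was the higher in 3 of 5, and Flrt1 and Tspan8 overlapped in Control mice, where Flrt1 was the higher in 3 of 5. Cntnap2 was lowest in each of the 10 mice.

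Within the FoxP1iSkmTg group the members fell into opposite orders. Replicates 1 and 3, the mice with the most Foxp1, were the lowest in Cntnap2, Ctxn3 and Tspan8 and the highest in Flrt1. Replicate 1 held 5.30% of the Control mean of Cntnap2, 9.32% of Ctxn3 and 17.5% of Tspan8, and replicate 3 held 7.07%, 10.7% and 19.4% of these genes in the same order. For Flrt1, replicate 1 held 27.8% and replicate 3 held 17.3% of the Control mean, whereas replicates 2, 4 and 5 held 6.48%, 6.77% and 10.4%. With 5 mice in the group, no correlation was computed. Such orders were common, as replicates 1 and 3 were the lowest pair in 24.6% and the highest pair in 21.7% of all tested genes. Among the 567 genes lower past the threshold, they were the lowest pair in 234 genes (41.3%), as in Cntnap2, Ctxn3 and Tspan8, and the highest pair in 50 genes (8.82%), as in Flrt1.

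**Figure D3:**
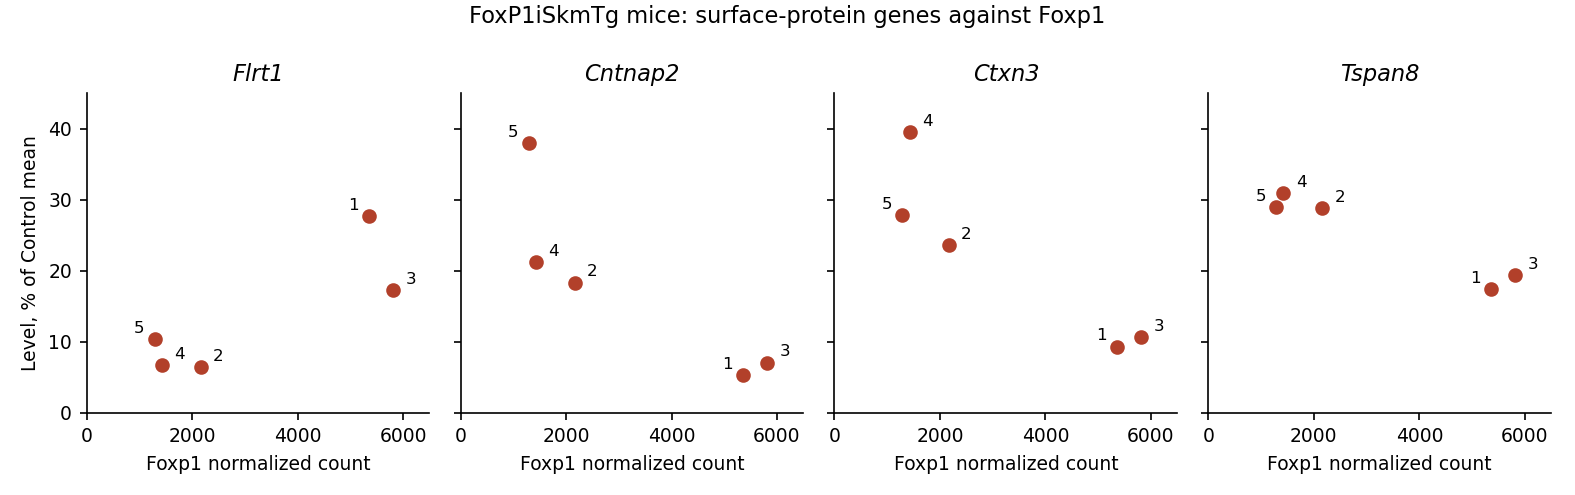
Level of each member in the 5 FoxP1iSkmTg mice, as a percent of the Control mean (linear axis), against the Foxp1 normalized count of the same mouse. Points are mice, labelled by replicate number; replicates 1 and 3, at 5352 and 5813 Foxp1 counts, are lowest for Cntnap2, Ctxn3 and Tspan8 and highest for Flrt1.

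The spread among FoxP1iSkmTg mice was wide for 3 of the 4 members. On the log2(normalized count + 1) scale, the SD in FoxP1iSkmTg mice was 0.90 for Flrt1, 1.12 for Cntnap2, 0.89 for Ctxn3 and 0.38 for Tspan8. In Control mice it was 0.19, 0.19, 0.14 and 0.20 for the same genes in that order. The ratio of these SDs was 4.64 for Flrt1, 6.05 for Cntnap2, 6.22 for Ctxn3 and 1.89 for Tspan8, against a median of 1.16 over all 3115 tested genes. The ratios of Flrt1, Cntnap2 and Ctxn3 exceeded those of at least 97.2% of tested genes, and that of Tspan8 exceeded 76.6%. Among the 567 genes lower past the threshold, the ratio tended to be larger, with a median of 1.32 and a 95th percentile of 4.21.

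The genes most like each member were sought through the deviations of log2(normalized count + 1) from the group means over the 10 mice, among 2432 protein-coding genes. Most of this variation came from the 5 FoxP1iSkmTg mice, and the values share libraries and size factors. Flrt1 was most like Ppp2ca, which encodes a catalytic subunit of protein phosphatase PP2A (Pearson r = 0.96), Atp6v0a2, a proton pump subunit gene (r = 0.95), and Zkscan1, a zinc finger gene (r = 0.93). Their own log2 fold changes were 0.17, 0.23 and 0.25, and none passed the test. Cntnap2 was most like Cd24a, which encodes a glycoprotein of the cell surface, Gmpr, which encodes GMP reductase, and Vamp5, a vesicle fusion gene of muscle (each r = 0.98). Of these, Cd24a fell, with a log2 fold change of -0.94 ± 0.15 (SE, adjusted p = 0.00282 by edgeR). Gmpr (adjusted p = 0.0703) and Vamp5 (0.0842) did not pass, but did so without FoxP1iSkmTg replicate 5 (0.0147 and 0.0359 by edgeR), and Gmpr also by DESeq2 (0.0134).

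Ctxn3 was most like Flot1, a gene of membrane rafts, Prkcq, which encodes protein kinase C theta, and Pfn2, which encodes an actin-binding profilin (each r = 0.98). Pfn2 passed the test, with a log2 fold change of -0.56 ± 0.09 (SE, adjusted p = 0.00187 by edgeR), whereas Flot1 (adjusted p = 0.101) and Prkcq (0.0612) did not. Both passed without FoxP1iSkmTg replicate 4 (0.0221 and 0.0116 by edgeR) and by DESeq2 (0.0292 and 0.0277). Tspan8 was most like Eif3j1, a translation initiation factor gene (r = 0.97), Ctsl, the lysosomal protease cathepsin L gene (r = 0.96), and Zranb1, a deubiquitinase gene (r = 0.96). All 3 fell, with log2 fold changes of -0.34, -0.50 and -0.50 and adjusted p of 0.0259, 0.0469 and 0.00278 by edgeR. Eif3j1 lost its call without FoxP1iSkmTg replicate 3 or Control replicate 1, 2 or 4 (0.0519 to 0.0663), and Ctsl without FoxP1iSkmTg replicate 1, 2 or 3 or any 1 Control mouse (0.058 to 0.106) and with a minimum count of 50 (0.0515). Each of the 12 genes was chosen for its r over the 10 mice, which is given as a description and need not hold within each group. The likeness of Flot1 to Ctxn3, and of Atp6v0a2 to Flrt1, was weaker among Control mice than among FoxP1iSkmTg mice. For Prkcq and Ctxn3, r was 0.998 among FoxP1iSkmTg mice and -0.34 among Control mice. With so few Control mice, this weak negative value does not show that Prkcq and Ctxn3 deviated in opposite senses.

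Near Ctxn3, the transcript 4930511M06Rik was lower by a similar amount. This noncoding transcript is annotated from 57373455 to 57552397 on the opposite strand, so Ctxn3 lies within its span, but by GENCODE vM21 the exons share no base. 4930511M06Rik had 7, 9, 11, 14 and 12 reads in FoxP1iSkmTg replicates 1 to 5, against 57, 50, 54, 22 and 36 reads in Control replicates 1 to 5. The groups did not overlap. By normalized count FoxP1iSkmTg replicate 1 was lowest in both genes, and replicate 3 was next to it in Ctxn3 only. The exact 95% Poisson intervals of the 4930511M06Rik reads in FoxP1iSkmTg mice all overlapped, as in replicates 1 (2.81 to 14.4) and 4 (7.65 to 23.5). The order of these mice in 4930511M06Rik is therefore not resolved. The log2 fold change was -2.14 ± 0.30 (SE), beside -2.13 for Ctxn3, with an adjusted p of 0.00106 by edgeR. The sources used here do not say whether counting used strand, so unspliced reads of one gene could be counted for the other, which was not tested.

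Slc12a2, which encodes the sodium-potassium-chloride cotransporter NKCC1, lies 401 kb from Ctxn3 and also fell. It stood at 948, 1435, 970, 1558 and 1328 normalized counts in FoxP1iSkmTg replicates 1 to 5, against 3080, 2936, 2829, 2883 and 2429 in Control replicates 1 to 5. The groups did not overlap, and FoxP1iSkmTg replicates 1 and 3 were the lowest mice. The log2 fold change was -1.16 ± 0.13 (SE, adjusted p = 0.000289 by edgeR). Of the other listed genes within 500 kb of Ctxn3, Prrc1 had a log2 fold change of -0.28 and did not pass (adjusted p = 0.146 by edgeR), and Ccdc192, a coiled-coil gene at 0.322 ± 0.721 normalized counts in FoxP1iSkmTg and 5.56 ± 1.18 in Control mice (SD, n = 5 each), was removed by the filter on low counts. Without the filter Ccdc192 passed as lower, at a log2 fold change of -3.50 by edgeR (adjusted p = 0.00954) and -3.85 by DESeq2 (adjusted p = 0.00912), on counts near 0 in FoxP1iSkmTg mice.

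Around Flrt1, the neighbours that passed the test moved in both directions, with log2 fold changes between -0.43 and 0.53. Flrt1 lies inside an intron of Macrod1, which is on the opposite strand, shares no exon base with it and is not among the listed genes. Of 8 listed genes within 500 kb, Mark2, a polarity kinase gene, fell, with a log2 fold change of -0.43 ± 0.07 (SE, adjusted p = 0.00325 by edgeR). Rps6ka4, Cox8a, Rtn3 and Pla2g16 rose, with log2 fold changes of 0.46, 0.53, 0.25 and 0.25 and adjusted p of 0.0158, 0.0245, 0.0386 and 0.0167 by edgeR. Cox8a lost its call without FoxP1iSkmTg replicate 1 or 3 or Control replicate 2, 3 or 4 (0.0542 to 0.0646). Rtn3 lost it without FoxP1iSkmTg replicate 1, 2, 3 or 4 or Control replicate 1, 2, 4 or 5 (0.0622 to 0.107), and with the authors' size factors (0.0595) or with totals without TMM (0.0601). With replicate number as a block, Rtn3 (adjusted p = 0.0828 by edgeR) and Pla2g16 (0.0534) lost their calls. Bad, at a log2 fold change of 0.41, and 2700081O15Rik, at 0.30, did not pass, although 2700081O15Rik did so without FoxP1iSkmTg replicate 4 (adjusted p = 0.0384 by edgeR). Catsperz, a sperm ion channel gene, was removed by the filter on low counts, at 4.17 ± 2.92 normalized counts in FoxP1iSkmTg and 0.841 ± 0.853 in Control mice (SD, n = 5 each), and without the filter it did not pass (log2 fold change 2.14, adjusted p = 0.113 by edgeR, and 2.30, adjusted p = 0.17 by DESeq2).

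Cntnap2 had 1 listed neighbour within 500 kb, Cul1, a cullin gene, at a log2 fold change of -0.18 ± 0.06 (SE) that did not pass by edgeR (adjusted p = 0.0934) and did by DESeq2 (0.0216). Of the 28 genes that GENCODE places within the span of Cntnap2, none shares an exon base with it and none is listed. Tspan8 had no listed neighbour. The antisense gene 4930422I22Rik, which is not listed, spans Tspan8 and shares 4 exon bases with it.

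Relatives and partners of the members were examined as 8 lists, of which 31 genes of 178 were listed and 27 passed the filter on low counts. Of these 27, 10 fell (37.0%) and 6 rose (22.2%), and 11 did not pass the test, beside the 18.2% lower and 22.2% higher over all tested genes. These shares over all tested genes also stand beside the counts of the single lists below. Genes that are not listed enter no count or median. The median log2 fold change of the 27 was 0.27, the value of Ache, which is the smallest positive value among them. The next value below was -0.23, for Amigo1, so this median lies at the edge of a gap around 0. Over all tested genes the median was 0.16, and its sign depends on the genes and mice kept. It was -0.11 by edgeR without the filter and -0.14 by DESeq2, both on the 3480 listed genes, and -0.07, -0.08 and -0.09 by edgeR without FoxP1iSkmTg replicate 1, 2 or 3. The count of lower relatives was 6 without FoxP1iSkmTg replicate 1, 5 without replicate 2 and 4 without replicate 3. It was 6 without Control replicate 1, 4 without replicate 3 and 5 without replicate 4. The count of higher relatives was 10 without FoxP1iSkmTg replicate 4.

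Among the FLRT family and its partners, 5 of 19 genes were listed and 2 fell, with a list median log2 fold change of -0.55. Tenm3, which fell and encodes a teneurin, a ligand of latrophilins, averaged 277 ± 43.2 normalized counts in FoxP1iSkmTg and 478 ± 90.8 in Control mice (SD, n = 5 each). The fitted log2 fold change was -0.76 ± 0.14 (SE, adjusted p = 0.00721 by edgeR). Fgfr1, a fibroblast growth factor receptor gene, had a log2 fold change of -0.77 ± 0.21 (SE, adjusted p = 0.0386 by edgeR), and lost its call without FoxP1iSkmTg replicates 1, 2 or 3 or Control replicates 2, 3, 4 or 5 (0.0595 to 0.0933). Flrt2, the other listed FLRT gene, did not pass (log2 fold change -0.55, adjusted p = 0.158 by edgeR), nor did the latrophilin gene Adgrl1 at 0.31 (adjusted p = 0.211), which passed without FoxP1iSkmTg replicate 4 (0.0232).

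For Cntnap2, the list of CASPR proteins, contactins and axonal potassium channels had 1 of 26 genes listed. This was Kcnab1, a potassium channel beta subunit gene, at 16.9 ± 7.97 normalized counts in FoxP1iSkmTg and 32.0 ± 5.66 in Control mice (SD, n = 5 each), which did not pass by edgeR (adjusted p = 0.0885) but did without FoxP1iSkmTg replicate 5 (0.0168) and by DESeq2 (0.0446). Of 26 other neural adhesion genes only Nlgn1 was listed, and it was removed by the filter on low counts and did not pass without the filter (adjusted p = 0.142 by edgeR and 0.242 by DESeq2), and of the other cortexin genes, Ctxn1 and Ctxn2, neither was listed. A gene that is not listed has no value here. Of 10 neuron and axon markers none was listed, and of 9 Schwann cell markers only Ngfr was, at 6.73 to 26.2 normalized counts in FoxP1iSkmTg and 18.5 to 32.1 in Control mice. The part of nerve tissue in the level of Cntnap2 was not tested. Of 8 epithelial cell markers, the cells in which Tspan8 is best known, none was listed.

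Tetraspanins moved in both directions, with 6 of 30 relatives of Tspan8 listed, 3 lower and 1 higher, and a list median log2 fold change of 0.03. Tspan12, which acts in Norrin and Frizzled signalling, fell, at 225 ± 22.1 normalized counts in FoxP1iSkmTg and 352 ± 49.95 in Control mice (SD, n = 5 each), a log2 fold change of -0.62 ± 0.11 (SE, adjusted p = 0.0058 by edgeR). Tspan9 rose, at 1113 ± 206 normalized counts in FoxP1iSkmTg and 578 ± 61.5 in Control mice (SD, n = 5 each), a log2 fold change of 0.97 ± 0.13 (SE, adjusted p = 0.000776 by edgeR). Tspan7 and Tspan13 fell by less, with log2 fold changes of -0.24 and -0.31 and adjusted p of 0.0267 and 0.0358 by edgeR. Tspan7 lost its call without FoxP1iSkmTg replicate 2 or 3 or Control replicate 1, 3 or 4 (0.0503 to 0.0675), and Tspan13 without FoxP1iSkmTg replicate 1, 2, 3 or 5 or Control replicate 1, 2 or 3 (0.0606 to 0.0833). Both listed integrin partners passed in opposite directions, Itga3 higher (log2 fold change 0.46, adjusted p = 0.0157 by edgeR) and Itga4 lower (-0.58, adjusted p = 0.037). Itga4 lost its call without FoxP1iSkmTg replicate 1, 2, 3 or 5 or Control replicate 1, 3 or 4 (0.0507 to 0.0892).

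Of 45 other surface proteins with leucine-rich repeats, 8 were listed and 5 tested, of which 3 fell, with a median log2 fold change of -0.25. Lgr4, an R-spondin receptor gene, fell, at a log2 fold change of -0.40 ± 0.07 (SE, adjusted p = 0.00523 by edgeR). Lrrn1 had a log2 fold change of -0.80 ± 0.19 (SE, adjusted p = 0.0234 by edgeR), which lost its call without Control replicate 1 (0.0626) or 3 (0.0608). Lrig1, which encodes a brake on growth factor receptors, had one of -0.25 ± 0.06 (SE, adjusted p = 0.0318 by edgeR), which lost its call without FoxP1iSkmTg replicate 1, 2, 3 or 4 or Control replicate 3, 4 or 5 (0.0503 to 0.0821). Amigo1 had a log2 fold change of -0.23 that did not pass (adjusted p = 0.106 by edgeR).

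Genes of the neuromuscular junction surface included 8 listed of 18, with 4 higher and 1 lower, and a median log2 fold change of 0.50. Over all tested genes, 22.2% were higher and 18.2% lower. Genes of the junction that are not listed are outside this median. Chrna1, which encodes the acetylcholine receptor alpha subunit, averaged 530 ± 56.1 normalized counts in FoxP1iSkmTg and 220 ± 35.0 in Control mice (SD, n = 5 each), a log2 fold change of 1.29 ± 0.12 (SE, adjusted p = 4.88e-05 by edgeR). Lrp4, which encodes the agrin receptor, rose by a log2 fold change of 0.71 ± 0.13 (SE, adjusted p = 0.00682 by edgeR). Chrnd, which encodes the delta subunit, rose by 0.73 ± 0.16 (SE, adjusted p = 0.0175), while Chrnb1, which encodes the beta subunit, fell, with a log2 fold change of -0.30 ± 0.07 (SE, adjusted p = 0.0201). Chrnb1 lost its call without FoxP1iSkmTg replicate 3 (0.0522) or Control replicate 4 (0.0517). With replicate number as a block, Chrnb1 (adjusted p = 0.0685 by edgeR) and Chrnd (0.0631) both lost it. Agrn, which encodes agrin, also passed (log2 fold change 0.84, adjusted p = 0.0283 by edgeR), but not without FoxP1iSkmTg replicate 1 or 3 or any 1 Control mouse (0.0524 to 0.0743).

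**Figure D4:**
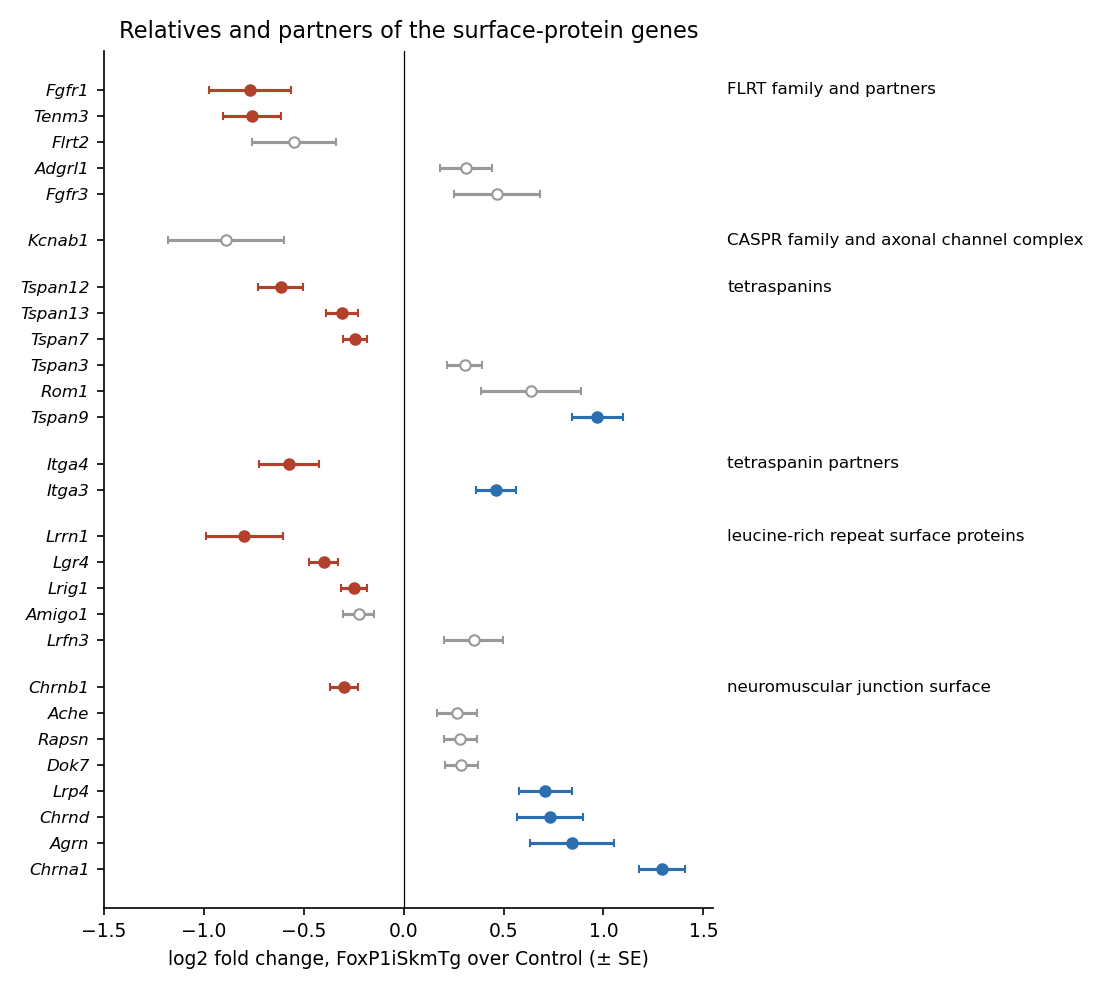
Fitted log2 fold change, FoxP1iSkmTg over Control, of the 27 tested relatives and partners, grouped by list. Points are edgeR estimates and bars SE. Filled red points are genes past the threshold and lower, filled blue are higher and open grey are those that did not pass. All estimates lie between -0.89 and 1.29.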

How the data were processed

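Poly-A RNA of the tibialis anterior of 5 FoxP1iSkmTg and 5 Control mice was sequenced as paired ends. The authors deposited raw read counts per gene and mouse, the same counts over DESeq2 size factors as a normalized signal, FPKM values and another column with gene length. Their deposited log2 fold changes were not used, and the deposited p-value columns served only to show that every one of the 3480 listed genes has p under 0.05 and that 15846 genes were adjusted over (151 listed genes lie outside that adjustment). The submitters' processing notes name HISAT2 2.0.5, DESeq2 1.20.0 and build mm10, whereas the study's methods name another aligner, so the aligner is not settled.

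Counts were fitted with edgeR 4.0.16 in R 4.3.3 (quasi-likelihood, two-sided) with TMM factors on library totals recovered from counts, lengths and FPKM (15510420 to 21989419), which followed the size factors closely and may not be depth, and filterByExpr with a minimum count of 10. Benjamini-Hochberg adjustment was over 15846 genes. Each SE beside an edgeR log2 fold change was derived, as the size of that value over the square root of the quasi-likelihood F statistic. TMM takes most genes as unchanged, which a list selected for low p need not meet. Alternatives were the authors' size factors, totals without TMM, DESeq2 1.42.0 on all listed genes, no filter, a minimum count of 50, a replicate block, each mouse left out and, for the members, log2(FPKM + 0.1). The members and lists were chosen with earlier results of these data known. Genes named are the 4 members, Foxp1, up to 4 of each family list by adjusted p, listed genes within 500 kb of a member, the 3 genes most like each member, and the next in the order of falls. Fibre markers, Ngfr and the other lower or higher relatives were named as well, after their values were seen. Of the marker lists, satellite cell, macrophage and adipocyte had 1 listed gene each (Itga7 higher, Cd14 and Plin1 not past the test), and endothelial and fibro-adipogenic lists had none. Each library is taken as 1 mouse, and p-values set the difference between the groups against the spread between these mice.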

Additional observations from a re-analysis of the deposited data

Results flagged for a closer look

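Among 46 members and named genes, or 92 groups of 5 mice, 4 groups had 1 mouse far from the others, where chance alone flags about 1 in 20 groups. None was a group of Flrt1, Cntnap2, Ctxn3 or Tspan8. Rtn3, a neighbour of Flrt1, stood at 829 normalized counts in FoxP1iSkmTg replicate 5, with the next mouse at 885. Tspan7 stood at 1161 in FoxP1iSkmTg replicate 2, with the next mouse at 1271. Lgr4 stood at 660.4 in Control replicate 5, with the next mouse at 792. Ccdc192, a neighbour of Ctxn3, stood at 1.61 in FoxP1iSkmTg replicate 4 and at 0 in the other FoxP1iSkmTg mice.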

How the results depend on the processing

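The log2 fold changes of the 4 members kept their sign under all 17 alternatives and moved by less than the pooled SD between mice, most of which comes from the FoxP1iSkmTg group. The Flrt1, Cntnap2 and Ctxn3 values moved by more than the Control SD alone. Their largest moves came without FoxP1iSkmTg replicate 1, 5 or 4 in that order. Each of these exceeded the SE of the main fit (0.35, 0.38 and 0.31). The log2 fold changes ran from -3.27 to -2.64 for Flrt1, -2.91 to -2.08 for Cntnap2, -2.47 to -1.93 for Ctxn3 and -2.06 to -1.86 for Tspan8. With DESeq2, run without the filter on low counts, 879 genes were lower and 840 higher, beside 618 and 788 by edgeR without the filter and 567 and 692 by edgeR with it. Leaving out 1 mouse at a time gave 431 to 597 lower genes and 451 to 702 higher genes, the fewest higher without Control replicate 2, and 4 to 9 lower and 5 to 10 higher relatives and partners. With the replicate block, 480 genes were lower, 480 were higher, and 5 relatives were lower. Under that block Pla2g16, Rtn3, Chrnb1 and Chrnd lost their calls. So did Tspan7 (adjusted p = 0.0561 by edgeR), Tspan13 (0.0834), Itga4 (0.0534) and Lrig1 (0.0609). In the other direction, Gmpr (0.0328), Vamp5 (0.0326) and Prkcq (0.0389) passed as lower. Same-numbered mice did not deviate together (r from -0.02 to 0.03, with 0 of 5 best matched to their own number), so the numbers are not taken as pairs. 4930511M06Rik passed under all 15 alternatives that kept it (adjusted p 3.15e-08 to 0.00912 by edgeR or DESeq2) and Slc12a2 under all 16 (2.66e-14 to 0.00213). Cntnap2 in FoxP1iSkmTg mice rests on 11 to 66 reads per mouse. The library totals are not settled as sequencing depth, and genes outside the list have no values.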
